A study of Homo sapiens with 30 samples.

Results

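RNA abundance in A549 cells was compared between a high dose of 500 µg/mL and a low dose of 20 µg/mL of an ethanol extract of Sibjeondaebo-tang, a Korean tonifying formula of several herbs. The members were the 3 libraries that the labels give as high dose and the 3 that they give as low dose, which makes 6 of the 30 libraries of the series, and all genes were tested between them. Every one of these cultures was the same human non-small cell lung carcinoma line, treated for 24 h, and no vehicle library entered the comparison. The 3 libraries of the medium dose, 100 µg/mL, are shown to place where along the dose range a change lay. The other libraries hold 3 related formulas (Samul-tang, Sagunja-tang and Palmul-tang) and the vehicle, and of these only Palmul-tang was used here. The labels number the replicates without saying whether they were separate cultures, so SDs and p-values reflect only how far these libraries differ from each other, a spread that may be technical. In bulk RNA a change in the make-up of the cells and a change per cell cannot be told apart.

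A herbal extract is a mixture, and cultured cells commonly meet such mixtures with sensors of foreign chemicals. The aryl hydrocarbon receptor binds planar aromatic compounds and switches on CYP1 enzymes, NRF2 responds to oxidants and electrophiles through antioxidant response elements, and ATF4 drives amino acid synthesis and uptake when amino acids run short or translation is slowed. A further layer lies in the nucleus, where splicing factors, many of them stored in nuclear speckles, decide whether an RNA is joined, kept back or broken down. Several genes of splicing factors carry exons or introns whose retention keeps the RNA from making protein, by which their own level is held in check. Long non-coding RNAs such as NEAT1 and MALAT1 stay in the nucleus beside these speckles.

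Levels below are in CPM, counts scaled to a common library total after each total was multiplied by its TMM factor, which is explained below. The 6 libraries held 28797312 to 35159898 expected counts each, and replicates of a dose correlated at 0.9925 to 0.9943 across genes. The first principal component of the 9 Sibjeondaebo-tang libraries took 44.2% of the variance and placed the high dose at -34.3 to -28.6, apart from the medium and low doses at 8.09 to 21.2. Low replicate 1 stood apart from its fellows: its counts differed from those of low replicates 2 and 3 by a chi-square per degree of freedom of 13.5 and 14.4, against 3.94 to 7.60 in every other replicate pair of the 3 doses. Mitochondrial transcripts took 17.9% of its counts, against 15.0% and 15.4% in the other low libraries, 18.5% to 19.9% at the high dose and 17.2% to 19.3% at the medium dose. A count was seen for 21754 to 22283 genes in the high libraries and for 23072 to 23318 in the low ones. Keratin genes of the lung carcinoma list were abundant in all 6 libraries (KRT8 at 3543, 3539 and 3407 CPM at the low dose), whereas SFTPA1, of alveolar surfactant, was at 0. The immune gene MS4A1 was at 0, and the endothelial gene VWF at no more than 0.0734 CPM. Other markers of these lists were expressed. The 7 endothelial markers, of which only KDR was tested, summed to 18.6 to 21.1 CPM at the low dose and 18.3 to 20.2 at the high dose. The 9 fibroblast markers summed to 31.6 to 33.5 CPM at the low dose and 32.6 to 34.0 at the high dose. The summed immune markers were at 15.3 to 19.4 CPM at the low dose and 22.1 to 25.2 at the high dose. They were mostly CD68, a lysosomal protein, which passed as a rise with a log2 change of 0.60. What that rise reflects was not tested.

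At the high dose 6336 of 15823 tested genes passed an adjusted p of 0.05 in edgeR's quasi-likelihood test, which is 40%. Of these, 3064 rose (19.4% of those tested) and 3272 fell (20.7%). The sizes were unequal: 546 genes fell by 2-fold or more (3.45%), and 15 rose by as much (0.0948%), or 31 without low replicate 1. The libraries of both doses did not overlap for 8000 genes, or 50.6%. The split between rises and falls rests on the scaling of the libraries by TMM, the trimmed mean that sets the bulk of genes to no change. With the library total alone 648 genes rose and 5684 fell, and the median of all genes moved from 0.00 to -0.15 on the log2 scale. Rises below are therefore relative to that bulk, and the counts with the library total alone are given beside each gene class or list that rose. The TMM factor was below 1 in the 3 high libraries (0.942 to 0.954) and above 1 in the 3 low ones (1.023 to 1.071).

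Most calls lay between the medium and the high dose. Between the high and the medium dose 5353 of 16215 genes passed (33%), 2499 of them higher (15.4%) and 2854 lower (17.6%) at the high dose, with 11 rises (0.0678%) and 395 falls (2.44%) of 2-fold or more. From the low to the medium dose the number of calls by edgeR was 0 (0%), and 1061 genes had an unadjusted p below 0.05. DESeq2 called 9 there, and edgeR called 165 without low replicate 1. Both contrasts share libraries with the comparison of the high and low doses, so their values are set side by side and not counted as further evidence.

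**Figure D1:**
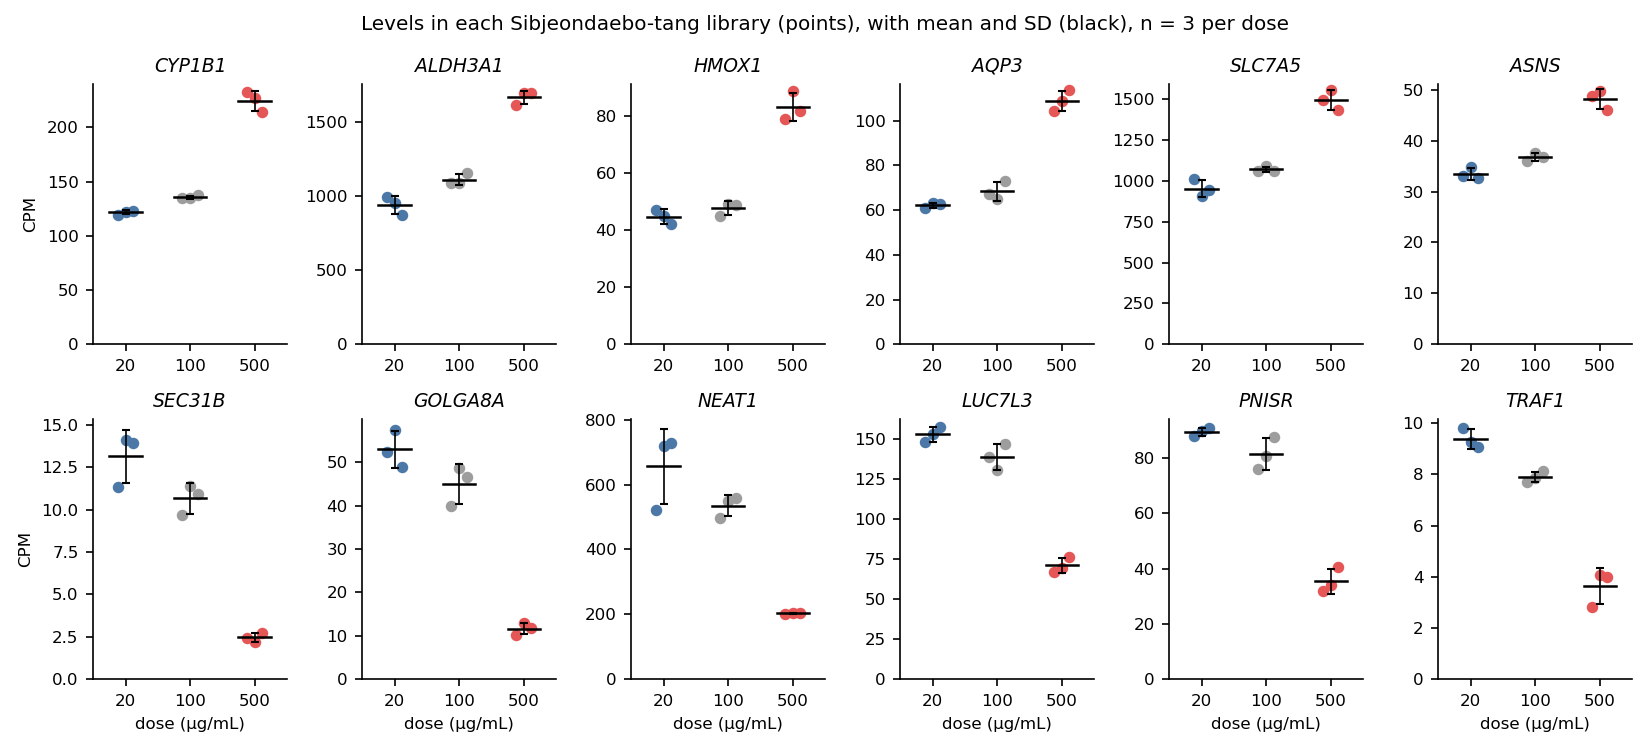
Level in CPM (vertical axis, from 0) of 12 genes at 20, 100 and 500 µg/mL (horizontal axis); points are libraries, the black line is the mean and the bar the SD of 3 libraries. In each panel the 3 high-dose points lie outside the range of the 3 low-dose points, and the medium-dose mean lies nearer to the low dose than to the high dose.

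The largest falls among genes with a mean above 2 on the log2 CPM scale were shared by protein-coding genes, pseudogenes and long non-coding RNAs. SEC31B (ENSG00000075826, chromosome 10, 100486642 to 100519864), which encodes an outer coat protein of the vesicles that leave the endoplasmic reticulum, stood at 11.3, 14.1 and 14.0 CPM in the low libraries, at 9.67, 11.4 and 10.9 in the medium ones and at 2.45, 2.20 and 2.73 in the high ones. The high libraries were all far below the others. That was a log2 change of -2.41 (SE 0.118, adjusted p = 2.08e-09 by edgeR), a level 5.34-fold lower. Part of SEC31B shares exons on the same strand with an unnamed gene, so its reads are divided between them. PAQR6, a membrane progestin receptor, held 9.78, 11.4 and 12.02 CPM at the low dose and 2.66, 2.97 and 3.15 at the high dose (log2 change -1.91), and TNFSF14, a ligand of the tumour necrosis factor family, held 8.02, 9.53 and 10.2 CPM at the low dose and 2.49, 2.68 and 3.02 at the high dose (-1.75). PABPC1L, a relative of the poly(A)-binding proteins, held 27.7, 31.0 and 31.3 CPM at the low dose and 7.88, 9.69 and 9.90 at the high dose (-1.71). In none of these did a high library reach the lowest of the medium libraries. CSAD, an enzyme of taurine synthesis, CCDC144A, the heat- and capsaicin-gated channel TRPV1 and the GABA receptor subunit GABBR1 fell by 1.67, 1.62, 1.57 and 1.56 in log2 change. PAQR6 lies opposite BGLAP, TRPV1 shares exons with SHPK, GABBR1 with UBD and CSAD lies opposite ZNF740, and whether reads were counted by strand is not given in the sources used here.

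Genes of the GOLGA8 and HERC2 families, copies of golgins and of a large ubiquitin ligase that lie in duplicated blocks on chromosome 15 and elsewhere, fell together. All 10 tested members of this list passed with a fall, 7 of them by 2-fold or more, and their median log2 change was -1.19, against 0.00 over all genes tested. This list and those below were chosen with earlier results of these data known. Their counts beside those of all genes are therefore a description and not a test. For every list the shares over all genes tested are 19.4% that rose and 20.7% that fell. Counts near these shares say nothing particular about a list. GOLGA8A (ENSG00000175265, chromosome 15, 34379068 to 34437466) held 52.4, 57.5 and 49.0 CPM at the low dose, 39.9, 48.7 and 46.5 at the medium dose and 10.3, 12.9 and 11.8 at the high dose, a log2 change of -2.18 (SE 0.0790, edgeR adjusted p = 6.73e-10). GOLGA8B fell by 2.02 and the pseudogenes HERC2P2 and HERC2P9 by 2.06 and 1.51 on this scale. The parent gene HERC2 moved far less, from 129.7, 136 and 132 to 118, 114 and 108 CPM (-0.22, SE 0.0451). These copies are near-identical in part, so reads shared among them are divided by the quantification, and the values of single copies are uncertain. Their summed level, 430.3 to 486 CPM at the low dose, 377 to 407 at the medium dose and 194 to 206 at the high dose, does not rest on that division within the list.

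Genes of splicing factors of the nuclear speckle fell as a group. Of 18 tested genes of the U1 snRNP-associated and speckle list, 16 fell and 0 rose, with a median log2 change of -0.48, where 20.7% of all tested genes fell. This list too was chosen with earlier results known. The largest change was that of PNISR, a serine- and arginine-rich speckle protein, with 88.1, 89.9 and 91.0 CPM in the low libraries, 76.2, 80.9 and 87.8 in the medium and 31.7, 34.2 and 40.4 in the high ones (log2 change -1.33, SE 0.0699, edgeR adjusted p = 3.32e-08). LUC7L3 (ENSG00000108848, chromosome 17, 50719544 to 50756213), which helps the U1 particle to find the start of an intron, held 148, 153 and 158 CPM at the low dose, 139, 131 and 147 at the medium dose and 67.2, 69.4 and 76.6 at the high dose (-1.10, SE 0.0511). In both genes the medium libraries lay a little below the low ones and the high libraries far below both. The cyclophilin NKTR fell by 0.86, PNN, a partner of the exon junction complex, by 0.71, RBM25 by 0.67, DDX39B, an RNA helicase of splicing and export, by 0.67 and the speckle scaffold gene SRRM2 by 0.66. The scaffold gene SON fell by only 0.11 (adjusted p = 0.0485 by edgeR). The core U1 protein gene SNRNP70 and LUC7L2 had log2 changes of 0.01 and -0.04 and did not pass. With the library total alone 18 of the 18 fell.

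The SR proteins, which recruit the splicing machinery to exons, and the kinases that phosphorylate them were mixed. Of 19 tested genes 9 fell (47.4%) and 2 rose (10.5%), with a median of -0.13, beside 20.7% and 19.4% of all genes. SRSF5 held 144, 163 and 163 CPM at the low dose, 139, 153 and 159 at the medium dose and 91.4, 97.0 and 105 at the high dose (log2 change -0.67, SE 0.0583). The kinase gene CLK2 fell by 0.64, SRSF11 by 0.54, SRSF4 by 0.42 and SRSF10 by 0.38, while SRSF3 (0.26) and TRA2B (0.15) rose. With the library total alone 14 fell and 0 rose, so neither rise held under that scaling. Among abundant protein-coding genes (a mean of at least 100 CPM) the largest fall was that of LENG8, at 201, 221 and 225 CPM at the low dose and 75.3, 86.8 and 92.1 at the high dose (-1.34), followed by LUC7L3, OGT and DDX17. OGT, the only enzyme that adds N-acetylglucosamine to nuclear and cytosolic proteins, held 198, 217 and 211 CPM at the low dose, 180.4, 192 and 189 at the medium dose and 96.2, 94.2 and 101 at the high dose (-1.10, SE 0.0476). DDX17, an RNA helicase, went from 277 ± 6.72 to 153 ± 3.10 CPM (mean and SD, n = 3 each). LENG8 lies opposite LENG8-AS1 and LENG9, and DDX17 opposite KDELR3.

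Long non-coding RNAs fell far more often than they rose. Of 1662 tested, 449 fell (27.02%), 168 of them by 2-fold or more, and 33 rose (1.99%). Their median log2 change was -0.28. Of all genes tested 20.7% fell and 19.4% rose, so the class stood out more by its few rises than by its share of falls. Its rises numbered 18 without high replicate 1 and 19 without low replicate 2. Of 704 pseudogenes 215 fell (30.54%) and 41 rose (5.82%), with a median of -0.15. Of 13207 protein-coding genes 2521 fell (19.1%) and 2981 rose (22.6%), with a median of 0.03. With the library total alone 4702 protein-coding genes fell and 625 rose (median -0.12), and with TMM factors from protein-coding genes 2765 fell and 2509 rose. For pseudogenes the median was -0.31 with the library total alone (259 fell, 15 rose) and -0.039 with a mean of at least 5 CPM (65 fell, 21 rose), and for long non-coding genes -0.44 (614 fell, 7 rose) and -0.17 (96 fell, 14 rose). Long non-coding genes were 30.8% of the 2-fold falls and 10.5% of the genes tested, pseudogenes 16.3% and 4.45%, and protein-coding genes 46.3% and 83.5%. In each library this was seen as a share of counts: long non-coding genes took 0.743% to 0.778% at the high dose, 0.863% to 0.882% at the medium dose and 0.863% to 0.989% at the low dose.

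**Figure D2:**
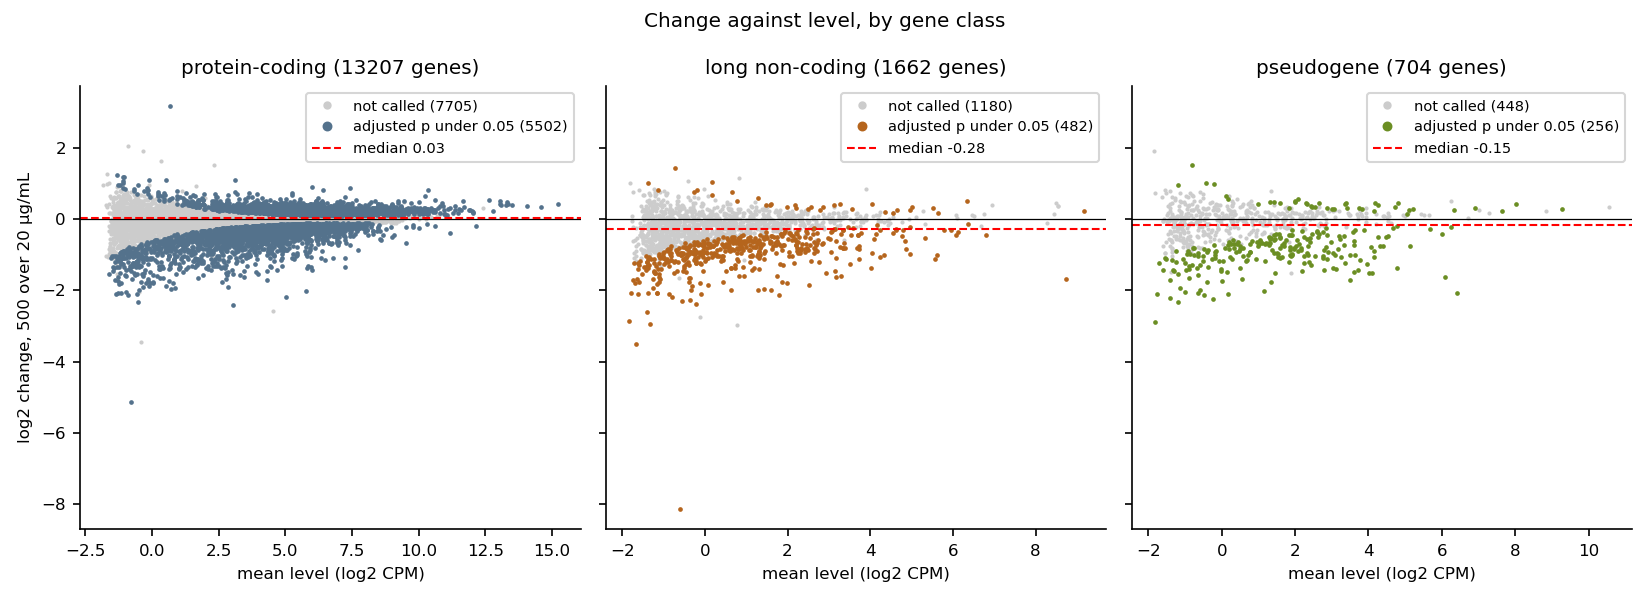
Log2 change of the high over the low dose (vertical axis) against the mean level in log2 CPM (horizontal axis) for protein-coding genes, long non-coding genes and pseudogenes; each point is a gene, coloured where the adjusted p was under 0.05, and the dashed line is the median. The coloured points of the long non-coding panel lie almost wholly below 0, with 449 falls and 33 rises, whereas those of the protein-coding panel lie on both sides.

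NEAT1 (ENSG00000245532, chromosome 11, 65422774 to 65445540), the scaffold of nuclear paraspeckles, held 523, 719.7 and 727 CPM in the low libraries, 497, 550.0 and 558 in the medium ones and 201, 203 and 204 in the high ones, a log2 change of -1.69 (SE 0.136, edgeR adjusted p = 3.24e-04). The low libraries spread widely, with replicate 1 the lowest, and all of them stood far above the high ones, which were nearly equal. MALAT1, a speckle RNA from the neighbouring locus, went the other way, with 536, 529 and 525 CPM at the low dose and 648, 612 and 599 at the high dose (0.23, adjusted p = 8.84e-04 by edgeR). Of the 13 abundant long non-coding RNAs of the list 10 fell and MALAT1 alone rose, with a median of -0.56, and 12 fell and 0 rose with the library total alone. The imprinted RNA MEG3 fell by 1.67, MIR22HG by 0.62, KCNQ1OT1, an antisense regulator of an imprinted locus, by 0.56 and TUG1 by 0.45. APPAT fell by 1.86 and AP1G2-AS1 by 1.63, and the latter lies opposite exons of AP1G2 and JPH4. The pseudogenes FER1L4 and AHSA2P fell by 1.71 and 1.62. Above a mean of 2 on the log2 CPM scale the largest rises among long non-coding genes were smaller, at 0.42 for MILIP and 0.42 for AGAP2-AS1. Host genes of small nucleolar RNAs did not move as one, with 4 falls (26.7%) and 2 rises (13.3%) among 15 tested. Of all genes 20.7% fell and 19.4% rose. There were 6 falls and 0 rises with the library total alone, and 7 falls without low replicate 1. SNHG12 fell by 0.82 and SNHG1 by 0.37.

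Among protein-coding genes the direction went with the length of the transcript. Genes were divided into 5 equal bins by the length of their longest annotated transcript. In the shortest bin (207 to 2160 bases) 38.8% rose and 7.68% fell, with a median log2 change of 0.16, whereas in the longest bin (5945 to 109224 bases) 8.44% rose and 34.7% fell, with a median of -0.09. The medians of the bins between were 0.08, 0.03 and -0.02. The bins were counted after TMM only. With the library total alone the median of all protein-coding genes was -0.12 instead of 0.03. Rises in the shortest bin are therefore relative to the bulk of genes, and what is described is the contrast between bins. Falls also became more frequent with the number of exons, from 12.1% in the lowest bin to 35.0% in the highest. The 2-fold falls were 1.67% to 2.08% of genes in every bin of transcript length, went from 1.29% in the lowest to 2.95% in the highest bin of exon number, and from 2.99% to 1.14% over the bins of gene span. Nuclear genes of the longest bin took 17.3% to 17.5% of nuclear protein-coding counts in the high libraries, 19.1% to 19.5% in the medium ones and 19.4% to 19.7% in the low ones, and those of the shortest bin 27.1% to 27.2%, 24.7% to 25.5% and 24.8% to 25.2%. RNA integrity is given by the labels only as above a limit for every sample, so its part in this pattern was not tested.

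**Figure D3:**
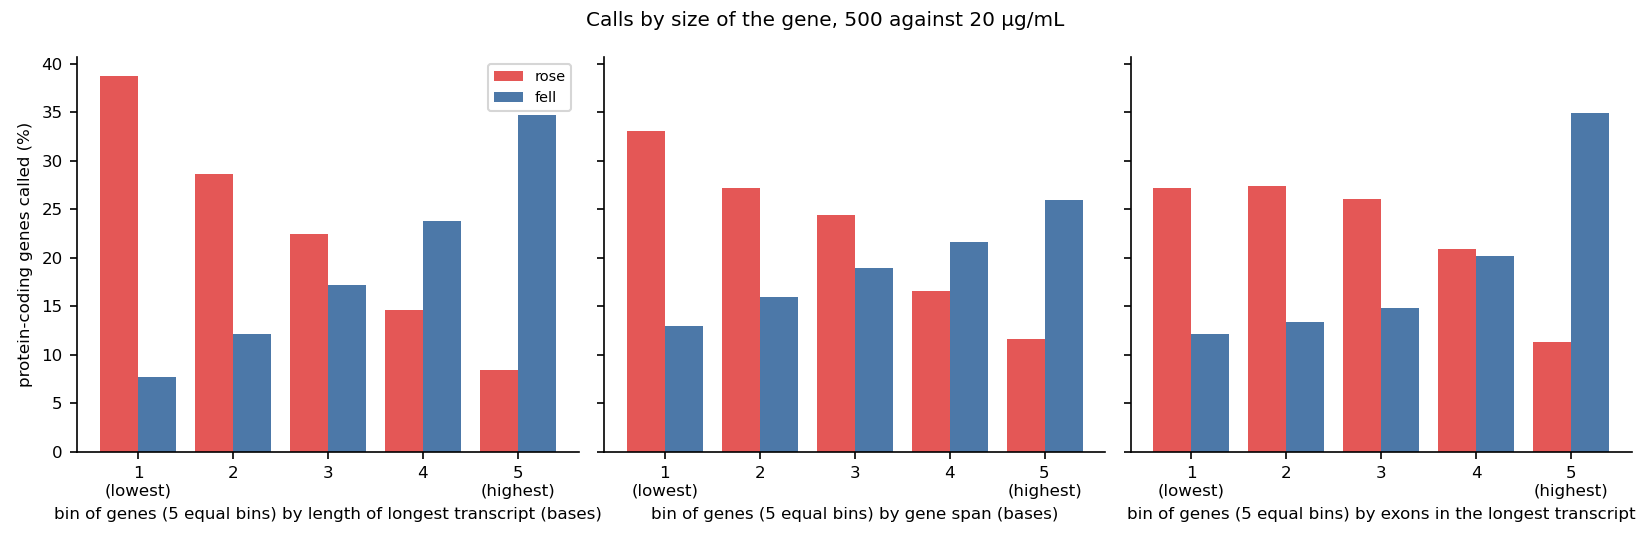
Share of protein-coding genes (vertical axis, percent, from 0) that rose or fell at an adjusted p under 0.05, in 5 equal bins of genes by length of the longest transcript, by span of the gene and by number of exons (horizontal axis). From the shortest to the longest transcripts the share that rose after TMM went from 38.8% to 8.44% and the share that fell from 7.68% to 34.7%.

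Large genes of the DNA damage response and of chromatin fell with the long transcripts, and 94.4% of the list's nuclear protein-coding members lay in the longest bin. Of 18 tested, 12 fell and 0 rose, with a median of -0.24, beside -0.09 for that bin, and 17 fell and 0 rose with the library total alone. ATM, the kinase that signals DNA double-strand breaks, held 44.3, 49.5 and 52.4 CPM at the low dose, 42.7, 45.5 and 42.0 at the medium dose and 28.3, 30.1 and 28.0 at the high dose (log2 change -0.75, SE 0.0617, edgeR adjusted p = 3.43e-07). All high libraries of ATM were below the low and medium ones. Its relative ATR fell by 0.28, and the histone methyltransferase genes KMT2A and KMT2C by 0.36 and 0.31. PRKDC, EP300 and ARID1A of the same list had changes of -0.07, -0.08 and -0.03 and did not pass. Of other abundant genes with large falls DST, a giant linker of the cytoskeleton, went from 213 ± 4.68 to 128 ± 10.5 CPM, and ITGA1, a collagen-binding integrin subunit that shares exons with PELO, from 128 ± 3.29 to 79.6 ± 3.32 CPM (n = 3 each). Nuclear pore genes, of which 50% lay in the longest bin, were mixed, with 7 rises and 2 falls among 22 (0 and 6 with the library total alone, and 4 rises without high replicate 2), and TPR, of the nuclear basket, fell by 0.45.

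Among the genes that rose most were those of foreign-chemical and oxidant defence. CYP1B1 (ENSG00000138061, chromosome 2, 38066973 to 38109902), a monooxygenase under the aryl hydrocarbon receptor, held 119.5, 122 and 123 CPM in the low libraries, 135, 134 and 137 in the medium ones and 232, 227 and 215 in the high ones, a log2 change of 0.89 (SE 0.0440, edgeR adjusted p = 2.12e-09). The medium libraries lay just above the low ones, and the high libraries far above both. CYP1B1 shares exon sequence with RMDN2-AS1 and lies opposite RMDN2. CYP1A1 (ENSG00000140465, chromosome 15, 74719542 to 74725610), the classical target, was near the floor, with 0.363, 0.337 and 0.267 CPM at the low dose, 0.180, 0.330 and 0.394 at the medium dose and 2.697, 3.596 and 2.60 at the high dose (3.18, SE 0.227). ALDH3A1, an aldehyde dehydrogenase, stood at 996, 954 and 874 CPM at the low dose, 1088, 1091 and 1155 at the medium dose and 1614, 1692 and 1692 at the high dose. TIPARP, an ADP-ribosylase that feeds back on the receptor, stood at 28.6, 30.6 and 29.1 CPM at the low and 36.9, 38.8 and 37.7 at the high dose (0.36). CYP2S1 rose by 0.72. UGT1A6 fell by 0.23, and its exons belong to a shared locus. Of 10 tested targets 6 rose and 1 fell, beside 19.4% and 20.7% of all genes, and 5 rose and 1 fell with the library total alone.

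The promoters of 4 called genes of the receptor, NRF2 and ATF4 lists are shown because each window holds the core motif of its list, for which they were picked. They come from RefSeq (GRCh38.p14), run from 250 bases before to 50 after the start of the gene, and read in the direction of transcription. Capitals mark the match on either strand: GCGTG for the aryl hydrocarbon receptor, TGACNNNGC for the antioxidant response element and TGATGNAA for the ATF4 composite site. The windows lie at chr15:74725479-74725778 (minus strand), chr3:156674340-156674639 (plus strand), chr1:93909381-93909680 (minus strand) and chr7:97872359-97872658 (minus strand).
CYP1A1: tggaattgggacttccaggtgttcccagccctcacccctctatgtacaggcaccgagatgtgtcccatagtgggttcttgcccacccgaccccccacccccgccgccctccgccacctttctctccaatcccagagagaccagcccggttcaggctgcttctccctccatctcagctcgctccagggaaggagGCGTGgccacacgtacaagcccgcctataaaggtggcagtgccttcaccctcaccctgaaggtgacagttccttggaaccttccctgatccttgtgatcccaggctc
TIPARP: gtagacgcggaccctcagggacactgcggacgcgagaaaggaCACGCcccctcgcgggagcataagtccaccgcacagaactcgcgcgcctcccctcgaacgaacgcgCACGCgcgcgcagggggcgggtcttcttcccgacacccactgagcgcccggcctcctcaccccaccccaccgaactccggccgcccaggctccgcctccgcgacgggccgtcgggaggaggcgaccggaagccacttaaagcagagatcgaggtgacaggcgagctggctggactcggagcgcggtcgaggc
GCLM: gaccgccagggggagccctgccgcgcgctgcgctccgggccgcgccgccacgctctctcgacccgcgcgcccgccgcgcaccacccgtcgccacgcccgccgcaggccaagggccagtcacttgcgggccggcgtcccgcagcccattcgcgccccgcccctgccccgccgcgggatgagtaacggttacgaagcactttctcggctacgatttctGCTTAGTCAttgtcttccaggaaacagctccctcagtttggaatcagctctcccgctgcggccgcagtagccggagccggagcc
ASNS: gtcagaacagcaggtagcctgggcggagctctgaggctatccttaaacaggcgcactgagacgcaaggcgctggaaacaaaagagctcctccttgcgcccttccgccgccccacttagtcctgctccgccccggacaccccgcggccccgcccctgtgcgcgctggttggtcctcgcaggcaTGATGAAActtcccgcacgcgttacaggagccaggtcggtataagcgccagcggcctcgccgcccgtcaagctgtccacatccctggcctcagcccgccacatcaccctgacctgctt
A match is a description and not a bound site, and the short receptor core is common. GCGTG stood in 50.3% of the 11331 tested genes with a window, in 53.8% of those that rose and in 46.3% of those that fell. TGACNNNGC stood in 15.2% of all windows, 16.1% of rises and 14.9% of falls, and TGATGNAA in 1.69%, 2.03% and 1.45%. Of the tested list members with a window, 6 of 7 receptor targets, 5 of 18 NRF2 targets and 3 of 15 ATF4 targets held the motif of their list. GCGTG and TGACNNNGC were not particular to their lists. GCGTG also stood in 11 of 15 ATF4 targets and 10 of 18 NRF2 targets. TGACNNNGC stood in 26.7% of ATF4 targets, beside 27.8% of NRF2 targets, and in 0 of 7 receptor targets. TGATGNAA stood in 0 of 18 NRF2 targets and 0 of 7 receptor targets. The windows of ABCC2, PHGDH and TRIB3 held no match to the motif of their list.

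Among NRF2 targets the enzymes of glutathione, iron and NADPH rose while export pumps fell. HMOX1 (ENSG00000100292, chromosome 22, 35380361 to 35394214), which breaks down haem, held 47.2, 45.1 and 42.1 CPM at the low dose, 44.9, 49.3 and 49.0 at the medium dose and 79.1, 88.8 and 81.7 at the high dose (log2 change 0.90, SE 0.0545, edgeR adjusted p = 1.71e-08). Low and medium libraries overlapped and the high libraries stood clear of them. GCLM, the modifier subunit of the first enzyme of glutathione synthesis, went from 127, 134 and 142 to 182, 187 and 176 CPM (0.44), and the ferritin heavy chain FTH1 from 5532, 5164 and 5014 to 7012, 7600.2 and 8195 CPM (0.54). Enzymes of the pentose phosphate pathway, which supplies NADPH, rose by 0.38 for TKT, 0.32 for TALDO1 and 0.31 for PGD. The conjugate export pumps ABCC2 and ABCC3 fell, ABCC2 from 438, 478 and 470.1 to 338, 343 and 345 CPM (-0.43) and ABCC3 fell by 0.45. Of 26 tested targets 18 rose and 2 fell, with a median of 0.25, and with the library total alone 11 rose and 3 fell.

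Genes of amino acid supply rose in part. The transporter pair SLC7A5 and SLC3A2, which together bring in large neutral amino acids, went from 1009.9, 905 and 942 to 1495, 1556 and 1434 CPM (0.65, SE 0.0513) and from 248, 272 and 305 to 419.9, 399 and 361 CPM (0.52, SE 0.0786). ASNS, asparagine synthetase, held 33.0, 34.9 and 32.7 CPM at the low dose, 36.1, 37.6 and 36.8 at the medium dose and 48.7, 49.8 and 46.0 at the high dose (0.53, edgeR adjusted p = 1.83e-06). PHGDH, the first step of serine synthesis, rose by 0.49, the glutamine transporter SLC1A5 by 0.43 and the ATF4 inhibitor TRIB3 by 0.31. The stress genes of the same list did not follow: DDIT3 and ATF3 had changes of -0.28 and -0.04 and did not pass, and NUPR1 fell by 0.35. Of 18 tested ATF4 targets 9 rose and 1 fell (5 and 3 with the library total alone), and of 12 amino acid transporters 6 rose and 2 fell (4 and 3). Chaperones of the endoplasmic reticulum were mixed, with 6 rises and 4 falls among 19 (0 and 8 with the library total alone), and the rises numbered 1 to 3 without any 1 library other than low replicate 1, with PDIA6 at 0.17 and HSP90B1 at -0.22.

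Of the other large rises, AQP3, a channel for water and glycerol, held 61.0, 63.3 and 62.5 CPM at the low dose, 67.1, 64.8 and 73.1 at the medium dose and 104, 109 and 114 at the high dose (0.81, SE 0.0449). NOTCH3 rose from 30.2, 28.2 and 27.6 to 49.8, 46.2 and 47.8 CPM (0.74), and it was the only one of 13 tested genes of the Notch list to pass, with 0 falls (5 falls with the library total alone). Its relative NOTCH1 (0.23) and the target HES1 (0.08) did not pass, though NOTCH1 did without low replicate 1 (adjusted p = 0.00282 by edgeR). HES4, at -0.39 (adjusted p = 0.0503 by edgeR), named after its values were seen, missed the threshold, and passed as a fall under 6 of 14 alternatives, among them RLE scaling (0.0479) and without low replicate 2 (0.00573). EEF1A2, an elongation factor of translation, GPAT3, an enzyme of triglyceride synthesis, and TESC, a calcium-binding protein, rose by 0.75, 0.73 and 0.72. Among abundant genes GPC1, a heparan sulfate proteoglycan of the cell surface, rose by 0.63, the epithelial adaptor gene SFN by 0.55 and the tubulin gene TUBA1B by 0.55. Above a mean of 2 on the log2 CPM scale the largest fitted rise was that of SULT1A3, at 1.12 (SE 0.296), with 5.98, 6.61 and 4.01 CPM at the low and 8.41, 15.5 and 12.2 at the high dose. SULT1A3 can share reads with the near-identical SULT1A4, which fell by 0.24, and its call was lost without high replicate 3 (adjusted p = 0.0764 by edgeR), without low replicate 1 (0.117) and without low replicate 3 (0.0770), as well as with the library total alone (0.0508) and with no filter on low counts (0.100). The brain cytoplasmic RNA BCYRN1 (0.74, 3 low libraries at 66.3, 69.8 and 92.5 CPM) likewise lost its call without any 1 of 4 libraries: high replicate 1, high replicate 3, low replicate 1 or low replicate 2. It also lost it with the library total alone (adjusted p = 0.0781 by edgeR) and with no filter (0.0794).

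Of 27 tested genes of the hypoxia and glycolysis list 15 rose and 3 fell, and with the library total alone 8 rose and 6 fell. ALDOA, aldolase, went from 1705, 1540.4 and 1523 to 2172, 2193 and 2184 CPM (log2 change 0.46, SE 0.0510), the glucose carrier SLC2A1 rose by 0.45, PGAM1 by 0.39, TPI1 by 0.33 and PFKP by 0.31. Members in the other direction were the growth factor gene VEGFA, which fell by 0.31, the glucose carrier gene SLC2A3, by 0.38, and the enolase gene ENO2, by 0.28. CA9 (0.07) and ADM (-0.06) did not pass.

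Genes of protein synthesis, protein breakdown and respiration rose by small, even amounts that depended on the scaling. Of 79 cytosolic ribosomal protein genes 57 rose and 0 fell, with a median log2 change of 0.22, but 5 rose with the library total alone. Of 31 proteasome subunit genes 28 rose (3 with the library total alone, and 18 without high replicate 1), for instance PSMB2 by 0.30, and of 50 nuclear-encoded respiratory chain genes 31 rose (4), for instance COX8A by 0.36 and COX5A by 0.32. Of 20 cytosolic aminoacyl-tRNA synthetase genes, which load tRNAs, 16 rose (3), YARS1 by 0.30 and VARS1 by 0.29. None of these 4 lists held a fall, except 1 respiratory chain gene and 2 synthetase genes with the library total alone. Transcripts were short in the ribosomal and respiratory lists, with 62.0% and 60% of nuclear members in the shortest bin. The ribosomal proteins took 6.05% to 6.36% of counts in the high libraries, against 5.69% to 6.16% in the low ones, and these ranges overlap. Heat shock genes rose in 9 of 14 cases (1 with the library total alone, and 5 without high replicate 2), HSPB1 by 0.37.

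Transcripts of mitochondrial DNA rose under both scalings, in 10 of 13 genes each, with a median of 0.41 after TMM and 0.26 with the library total alone. MT-ND2, of respiratory complex I, held 8097, 6357 and 6771 CPM in the low libraries, 9178, 10743 and 7764 in the medium and 10469, 9507 and 10373 in the high ones (0.52, SE 0.0826). Low replicate 1 held more than the other low libraries, and without it the median of the list was 0.51 and 12 of 13 rose. The summed level at the medium dose, 134043 to 154870 CPM, lay nearer to the high dose (156744 to 171529) than to the low dose (111837 to 140142), unlike the genes above, and medium replicate 3 was below low replicate 1.

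**Figure D4:**
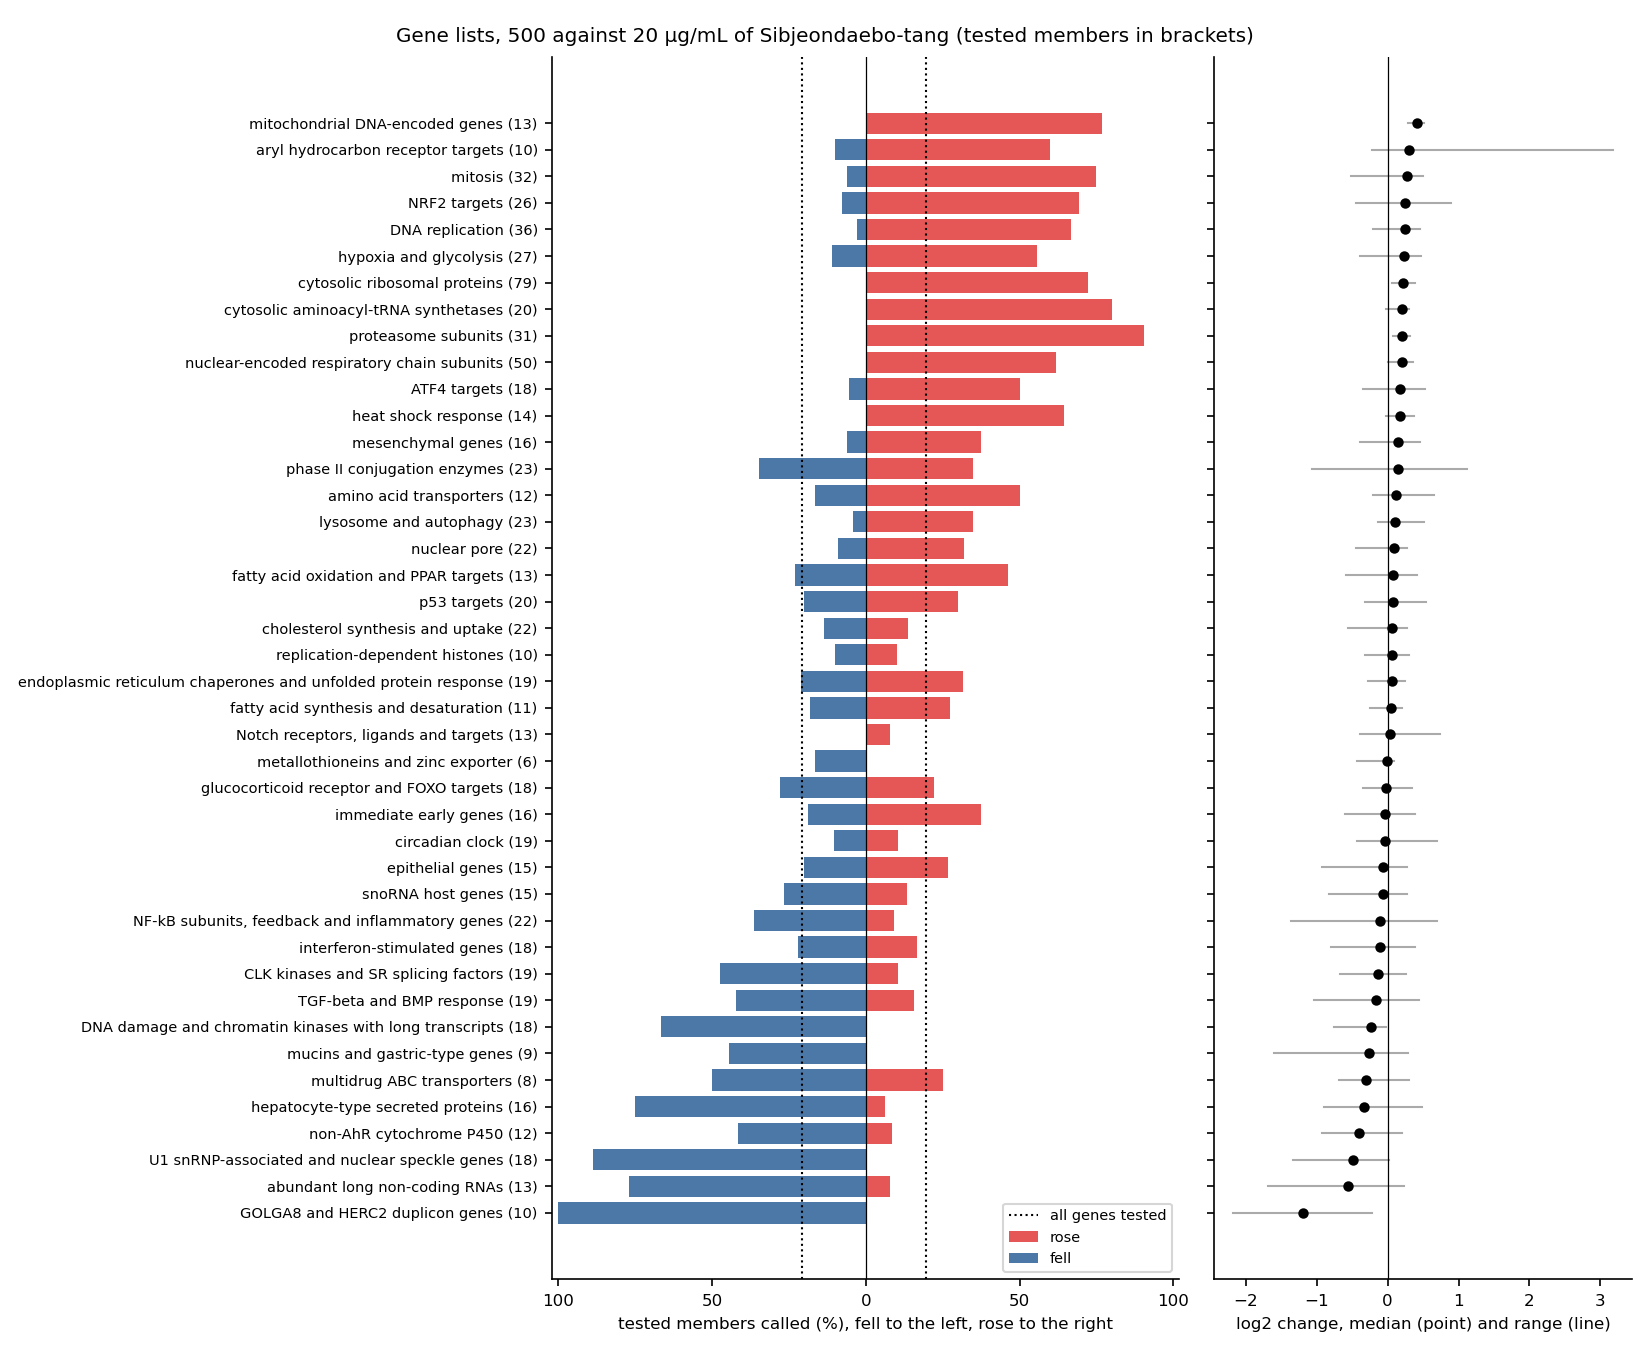
Left, share of tested members of each gene list (number in brackets) that fell, to the left of 0, or rose, to the right, at an adjusted p under 0.05, with dotted lines at the shares over all genes tested (20.7% and 19.4%); right, median log2 change (point) and range (line). The lists of speckle genes, long non-coding RNAs and duplicated genes lie at the bottom, with 16 of 18, 10 of 13 and 10 of 10 falls, and those of mitochondrial DNA, receptor targets and mitosis at the top.

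Genes of cell division rose. Of 32 mitosis genes 24 rose and 2 fell, with a median log2 change of 0.27 (15 and 2 with the library total alone), and of 36 DNA replication genes 24 rose and 1 fell, with a median of 0.25 (11 and 3). CDC20, which activates the anaphase ubiquitin ligase, held 60.5, 59.8 and 59.4 CPM at the low dose, 68.7, 65.5 and 63.9 at the medium dose and 88.6, 88.0 and 77.2 at the high dose (0.50, SE 0.0530, edgeR adjusted p = 4.63e-06). BIRC5 rose by 0.46, CCNB2 by 0.43, and of replication genes MCM5, of the helicase, by 0.44, and RRM1 and TYMS, which make DNA precursors, by 0.37 and 0.39. The exceptions were the kinetochore genes CENPE, from 31.9, 29.8 and 29.3 to 20.6, 21.4 and 21.3 CPM (-0.52), and CENPF (-0.22). Among p53 targets 6 of 20 rose (30%) and 4 fell (20%), beside 19.4% and 20.7% of all genes. With the library total alone 2 rose and 6 fell, and 1 or 2 fell without high replicate 1, high replicate 3 or low replicate 2. Of the rises GDF15 was at 0.54, PHLDA3 at 0.38 and CDKN1A at 0.27, and the lowest change in the list was -0.32. CDKN1A lost its call with the library total alone (adjusted p = 0.0596 by edgeR).

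A549 cells express in part genes for plasma proteins of the liver type. Of 16 tested, 12 fell and 1 rose (13 and 0 with the library total alone), with a median of -0.33. KNG1, kininogen, held 18.7, 18.8 and 18.9 CPM at the low dose, 14.0, 15.4 and 17.3 at the medium dose and 9.32, 9.87 and 11.5 at the high dose (-0.87, SE 0.0773), RBP4, the carrier of retinol, fell by 0.51, APOB by 0.90 and the fibrinogen gene FGA by 0.24. APOE (-0.02) did not pass. Here the members are short, with 43.8% in the shortest bin, where 7.68% of genes fell. Of 9 tested mucin and gastric-type genes 4 fell and 0 rose. MUC6 fell by 1.60, MUC16 by 0.93 (not called by DESeq2), PGC by 0.57 and MUC13 by 0.48. MUC6 and MUC16 are near the floor, at 0.469 to 0.762 and 1.22 to 1.83 CPM in the low-dose libraries of Palmul-tang. Of 15 epithelial genes 4 rose and 3 fell (0 and 4 with the library total alone). That was 26.7% and 20%, beside 19.4% and 20.7% of all genes tested. The tight junction genes CLDN7 and CLDN2 fell by 0.92 and 0.64, while 4 keratin genes, KRT8 among them at 0.27, rose, but none of the keratins with the library total alone. Of 16 mesenchymal genes 6 rose, VIM by 0.46, and 1, the fibronectin gene FN1, changed by -0.39, with a median of 0.15 (2 rises and 1 fall with the library total alone).

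Of 12 tested cytochrome P450 genes outside the receptor list 5 fell and 1 rose (6 and 0 with the library total alone). That was 41.7% and 8.33%, beside 20.7% and 19.4% of all genes. Their median was -0.40. CYP3A5, of the family that handles many drugs, held 25.0, 28.8 and 26.0 CPM at the low dose, 22.3, 23.8 and 25.2 at the medium dose and 12.7, 14.3 and 14.7 at the high dose (-0.93, SE 0.0723, edgeR adjusted p = 2.00e-07). CYP24A1, which inactivates vitamin D, fell by 0.54, CYP4F12 by 0.57 and CYP4F3 by 0.41. Of 8 multidrug ABC transporter genes 4 fell and 2 rose (5 and 0 with the library total alone). ABCC5 was at -0.69. ABCG2 rose, at 0.31, but lost its call with the library total alone (adjusted p = 0.0957 by edgeR). Conjugating enzymes went both ways, with 8 rises and 8 falls among 23, or 34.8% each. There were 3 rises and 8 falls with the library total alone, and 4 falls without high replicate 2 or low replicate 2. UGT1A1, which conjugates bilirubin and lies in the shared UGT1A locus, rose by 0.47, GSTP1 by 0.32 and the epoxide hydrolase EPHX1 by 0.33, and the oestrogen sulfotransferase SULT1E1 fell by 0.92.

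Of 22 NF-kB and inflammatory genes 8 fell and 2 rose (12 and 0 with the library total alone), beside 20.7% and 19.4% of all genes. TRAF1, an adaptor of tumour necrosis factor receptors, held 9.81, 9.25 and 9.08 CPM at the low dose, 7.72, 7.86 and 8.12 at the medium dose and 2.84, 4.07 and 3.99 at the high dose (-1.36, SE 0.115, edgeR adjusted p = 4.95e-07), the chemokine gene CXCL1 fell by 0.81, and the inhibitor gene NFKBIA (0.12) did not pass. Among interferon genes STAT2, a transcription factor of the interferon response, went from 35.9, 40.1 and 41.3 to 20.5, 22.7 and 24.0 CPM (-0.80) and its partner IRF9 fell by 0.43. Of 18 in that list 3 rose and 4 fell (1 and 8 with the library total alone). That was 16.7% and 22.2%, near the shares of all genes. In the TGF-beta and BMP list 8 of 19 fell and 3 rose (12 and 2), with SMAD6 at -0.51 and ID2 at -0.46 among the falls. Cholesterol genes had 3 rises and 3 falls among 22, or 13.6% each (1 and 8 with the library total alone). STARD4, a sterol carrier, fell by 0.56. Clock genes passed in 4 of 19 cases, 2 in each direction (0 rises and 8 falls with the library total alone), with PER2 at -0.29 and HLF at -0.43. Of lysosomal and autophagy genes 8 of 23 rose and 1 fell (4 and 3 with the library total alone), with the autophagy receptor SQSTM1, itself an NRF2 target, at 0.52 and cathepsin CTSD at 0.46.

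The same dose step was measured in Palmul-tang, a formula that shares herbs with it, in 6 libraries of which none is shared. In a fit of the 27 extract libraries, chosen after seeing the data, the difference between the 2 dose effects passed for 2790 of 17632 genes (15.8%), with 1076 changes higher and 1714 lower in Sibjeondaebo-tang, of which 9 and 372 by 1 log2 or more. The genes below were chosen for their change in Sibjeondaebo-tang, a value that enters the difference, so a difference is more likely among them than among genes at large. Among the falls GOLGA8A changed by -0.28 in Palmul-tang (55.6, 59.5 and 67.4 CPM at the low and 43.7, 62.3 and 45.3 at the high dose), which is -1.91 apart from Sibjeondaebo-tang (SE 0.206, edgeR adjusted p = 1.12e-05). LUC7L3 changed by -0.04 there (difference -1.06, adjusted p = 3.05e-11 by edgeR), NEAT1 by -0.14 (-1.55, adjusted p = 4.54e-05), ATM by -0.13 (-0.62) and CYP3A5 by 0.01 (-0.95). Other falls were of like direction in both: KNG1 changed by -0.78 in Palmul-tang (difference -0.09, edgeR adjusted p = 0.692) and ITGA1 by -0.57 (-0.11, edgeR adjusted p = 0.176), and neither difference passed. Rises were likewise mixed. SLC7A5 changed by 0.28 in Palmul-tang (difference 0.37, edgeR adjusted p = 1.04e-04), ALDOA by 0.11 (0.35, edgeR adjusted p = 7.15e-05) and GPC1 by 0.31 (0.32, edgeR adjusted p = 0.00306), each with a passing difference. For CYP1B1 and AQP3 no difference passed. CYP1B1 rose by 0.75 in Palmul-tang (difference 0.14, SE 0.0525, edgeR adjusted p = 0.0718) and AQP3 by 0.76 (difference 0.05, SE 0.0621, edgeR adjusted p = 0.664). The step was the same in µg/mL for both, and how much of each herb an extract held is not given in the sources used here.

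**Figure D5:**
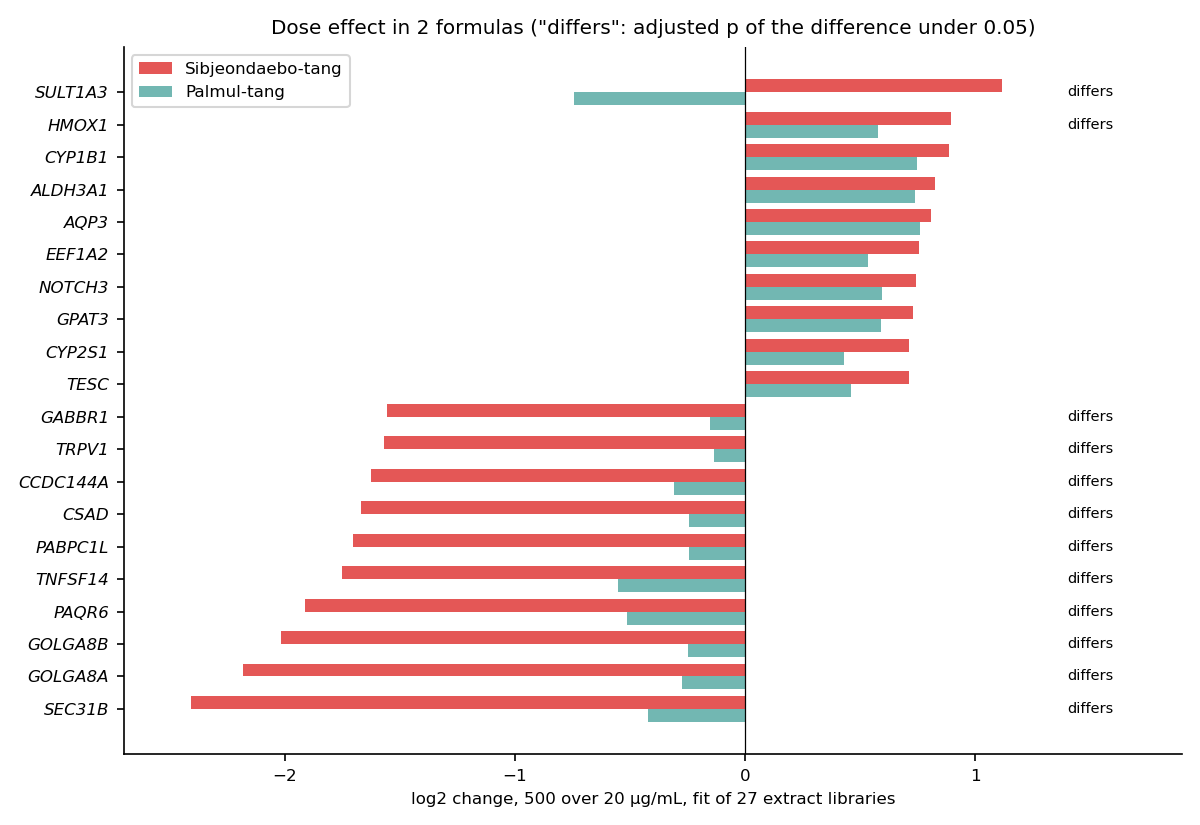
Log2 change of 500 over 20 µg/mL (horizontal axis) of the 10 largest protein-coding rises and 10 largest protein-coding falls of Sibjeondaebo-tang, with the same contrast in Palmul-tang, from 1 fit of 27 extract libraries; "differs" marks an adjusted p of the difference under 0.05. The 10 falls all differ, and of the 10 rises HMOX1 and SULT1A3 do; the genes were chosen for their change in Sibjeondaebo-tang.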

How the data were processed

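Messenger RNA of A549 cells was sequenced as paired reads on an MGI instrument from directional libraries, per the labels' protocols. The deposited values are RSEM expected counts per gene: the authors used FastQC 0.11.9, Trim Galore 0.6.5, STAR 2.7.3a and RSEM 1.3.3 with GRCh38 (hg38), per the submitters' processing notes. The annotation release and strand setting of that counting are not given in the sources used here. The 30 columns of this series were matched to samples by name, and 240 columns of other samples were not used. Of 60675 gene IDs 56558 had a symbol, and 57055 had a class and position in GENCODE 29.

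Expected counts, of which 8.50% to 9.32% of values were not whole, were rounded, filtered (filterByExpr) and tested with edgeR 4.0.16 (TMM, quasi-likelihood, R 4.3.3) over the 6 libraries, with Benjamini-Hochberg adjustment over 15823 genes and a threshold of 0.05. The biological coefficient of variation was 0.0496 on 4 residual degrees of freedom. CPM are counts over the library total multiplied by its TMM factor, so the printed levels carry that scaling. Shares of counts in percent do not. Alternatives were DESeq2 1.42.0, other scalings and filters, wider fits, a replicate block and leaving out each library. The Palmul-tang fit was added after seeing the data. The members, the 46 gene lists (931 of 935 entries matched, 854 tested) and the tests were chosen with earlier results of these data known. Genes were named by size of change (a mean log2 CPM of at least 2 and no overlap of the 2 doses) and by smallest adjusted p within each list, and other list members are given with their values. In simulated counts for 15582 genes with 200 changed, 81.8% to 100% were recovered per fold size. Unchanged genes made up 8.59% of calls, more than the threshold of 0.05 aims at. The changes put in were log2 shifts of 0.5, 1 and 2 in both directions. The simulation therefore does not cover smaller changes, nor data in which 40% of genes were called. Same-numbered high and low libraries did not deviate together (correlations of -0.0991, -0.000166 and -0.0410), so they were not treated as pairs. Some results are not reported here.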

Additional observations from a re-analysis of the deposited data

Results flagged for a closer look

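The high-minus-low change was set against the same contrast of Palmul-tang for the protein-coding genes with the largest changes, and 12 of 20 differed between the formulas by the test of the difference itself (edgeR adjusted p under 0.05 in the fit of 27 extract libraries, chosen after seeing the data). Values are the log2 change in Sibjeondaebo-tang minus that in Palmul-tang. The genes with a higher value were SULT1A3, at 1.86 (adjusted p = 0.0218 by edgeR, a gene with a near-identical copy), and HMOX1, at 0.32 (adjusted p = 0.00154 by edgeR). SULT1A3 changed by -0.74 in Palmul-tang without passing (adjusted p = 0.367 by edgeR), with low libraries at 6.47, 10.5 and 13.8 CPM. Its call in Sibjeondaebo-tang was lost under several alternatives, and no alternative was run for the difference. HMOX1 rose in both formulas, by 0.58 in Palmul-tang. The others were lower. SEC31B differed by -1.98, GOLGA8A by -1.91, GOLGA8B by -1.77, PABPC1L by -1.46, TRPV1 by -1.43 and CSAD by -1.43. GABBR1 differed by -1.40, PAQR6 by -1.40, CCDC144A by -1.31 and TNFSF14 by -1.20. The 20 genes were chosen for their change in Sibjeondaebo-tang, which is part of the difference, so their count is not to be read against the 15.8% of all genes that differed.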

How the results depend on the processing

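Scaling decided the balance of directions: with the library total alone 648 genes rose and 5684 fell, 7 and 828 of them by 2-fold or more. The genes CANX (0.14 after TMM) and FADS2 (0.11) then turned to -0.015 and -0.039. The number of 2-fold rises, 15 in the reported fit, was 51 with no filter on low counts, 1 with a mean of at least 5 CPM and 28 with all 30 libraries in the fit, and 2-fold falls numbered 134 instead of 546 under that stricter filter, which tested fewer genes. Leaving out 1 library gave 4942 to 6719 calls and 14 to 31 rises of 2-fold or more, the most without low replicate 1. Between the medium and low doses, against 0 calls reported, there were 9 with DESeq2, 93 with no filter, 2 with all 30 libraries and 0 to 165 without 1 library (165 without low replicate 1). With the replicate number as a block 5274 genes passed between the high and low doses and 4 between the medium and low ones. Same-numbered high and low libraries did not deviate together, but this does not settle whether the numbers pair the samples. Where a scaling or filter does not itself account for a shift, the cause was not tested. Of 209 genes followed, 197 were called and 160 of these kept direction and call in every alternative. Genes under a few CPM, CYP1A1, MUC6 and MUC16 among them, are limited by depth, and 3 libraries a dose limit all values.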
